A study of Mus musculus with 54 samples.

Results

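Myc, Bcl6 and Cdk6 are 3 of the 6129 genes whose promoter held an accessible region in an Abelson-transformed mouse progenitor B cell line. They were chosen by the number and span of their promoter contacts in an H3K4me3 PLAC-seq list of that line. PLAC-seq joins chromatin ends that lie close together in the nucleus and then enriches for a mark, here the promoter mark H3K4me3, so that it reads contacts of promoters. A member interaction was any listed pair of 5 kb bins in which a bin overlapped the gene's promoter peak. This gave 144 interactions, 73 for Myc, 49 for Bcl6 and 22 for Cdk6, of 36879 with a promoter anchor and 69898 in all. A promoter counted as accessible only where an accessible region was annotated as a promoter and assigned to that gene. An accessible region at a start but labelled otherwise was not counted.

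The series holds 54 samples. The contact map came from 2 PLAC-seq samples of 1 line, 230-238, whose replicates the authors merged, and its accessible regions came from 2 omni-ATAC-seq samples. Values at the contacted regions came from other cells, C57BL6/J fetal liver progenitors labelled ProB and grown on OP9 stroma with KIT ligand, FLT3 ligand and IL-7. Those cells were E2A-KO, Ebf1-KO or Wt. A further set was Ebf1-KO cells with the pMiG-Ebf1ER vector, in which Ebf1 is fused to an oestrogen receptor domain, after 0, 6, 24 and 72 h in 4OHT, with 2 samples a time and no 4OHT series without Ebf1ER. Each group was 1 column of the deposited tables, either pooled over libraries or a single library, so that no spread between replicates was available and no p-value is given. Library totals were 24557525 to 196071042 tags, and intervals cover counting error only. In the line, 7 of 8 progenitor B marker genes had an accessible promoter, among them Ebf1, Pax5 and Rag1. Of the marker genes of other cells, promoters of Tcf7 (1 of 4 T cell genes), Lyz2 (1 of 4 myeloid genes) and Gata1 (1 of 3 erythroid genes) were accessible, as were 0 of 2 natural killer and 0 of 2 stromal genes.

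Myc encodes a growth-promoting transcription factor that binds the E-box CACGTG together with Max. In mouse blood cells it is known to be driven by enhancers far downstream of the gene, beyond the non-coding gene Pvt1. Bcl6 encodes a zinc finger repressor that protects B cell precursors and germinal centre B cells, and its neighbour Lpp encodes a LIM domain protein. Cdk6 encodes the kinase that, with D-type cyclins, phosphorylates the retinoblastoma protein and takes cells into S phase. Ebf1 and E2A, the product of Tcf3, are the factors that start the B cell programme, Ikzf1 (Ikaros) is a zinc finger factor of lymphoid cells, and Fli1 belongs to the ETS family.

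Sequences of promoter windows at the contacted ends are given below because they are the fixed ends of the Bcl6 and Cdk6 contacts and the annotated starts that these contacts reached. Each is a RefSeq window of GRCm38.p6, 250 bases before to 50 after a start, read 5′ to 3′ on the gene's strand, with motif matches in capitals. Bcl6 lies at chr16:23988803-23989102 on the minus strand and Cdk6 at chr5:3343643-3343942 on the plus strand. Of 9 genes with a start in a partner bin, 3 are shown, all on the plus strand, Lpp at chr16:24393100-24393399, A230028O05Rik at chr16:25059389-25059688 and Krit1 at chr5:3802931-3803230.
Bcl6: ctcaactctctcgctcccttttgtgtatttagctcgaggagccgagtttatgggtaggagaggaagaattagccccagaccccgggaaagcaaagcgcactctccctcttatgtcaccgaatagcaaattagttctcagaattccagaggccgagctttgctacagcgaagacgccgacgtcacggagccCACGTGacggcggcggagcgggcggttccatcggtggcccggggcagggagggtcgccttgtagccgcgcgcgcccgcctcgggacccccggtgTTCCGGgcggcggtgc
Cdk6: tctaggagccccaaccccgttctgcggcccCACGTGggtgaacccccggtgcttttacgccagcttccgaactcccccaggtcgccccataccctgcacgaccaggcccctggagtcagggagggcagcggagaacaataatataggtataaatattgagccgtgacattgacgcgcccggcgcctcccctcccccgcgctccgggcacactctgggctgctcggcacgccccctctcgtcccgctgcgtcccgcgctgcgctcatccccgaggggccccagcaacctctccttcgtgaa
Lpp: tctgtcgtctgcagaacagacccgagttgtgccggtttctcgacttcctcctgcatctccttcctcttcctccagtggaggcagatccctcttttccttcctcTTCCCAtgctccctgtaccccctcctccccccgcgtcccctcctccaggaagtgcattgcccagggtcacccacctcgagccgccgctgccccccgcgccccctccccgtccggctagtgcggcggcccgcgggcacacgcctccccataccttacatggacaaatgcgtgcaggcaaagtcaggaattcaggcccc
A230028O05Rik: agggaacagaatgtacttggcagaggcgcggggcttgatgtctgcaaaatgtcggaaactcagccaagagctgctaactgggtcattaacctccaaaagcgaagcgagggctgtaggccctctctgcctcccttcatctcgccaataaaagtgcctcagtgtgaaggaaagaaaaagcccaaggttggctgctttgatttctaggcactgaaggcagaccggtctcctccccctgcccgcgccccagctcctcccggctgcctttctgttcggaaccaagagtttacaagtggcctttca
Krit1: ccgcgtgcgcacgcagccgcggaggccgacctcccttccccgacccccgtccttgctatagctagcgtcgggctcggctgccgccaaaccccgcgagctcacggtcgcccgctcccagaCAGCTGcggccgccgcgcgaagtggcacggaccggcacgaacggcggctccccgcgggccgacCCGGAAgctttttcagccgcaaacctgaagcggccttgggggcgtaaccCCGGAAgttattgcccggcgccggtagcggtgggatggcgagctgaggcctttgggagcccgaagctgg

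The motifs searched, on both strands, were CCGGAA for ETS factors, TGGGAA for Ikaros, the E-box CACGTG of Myc and Max, and the E-boxes CAGCTG of E proteins and CAGGTG of the same factors. No match overlapped another in the windows shown. Of 32851 promoter windows of this length, 14.9% held the ETS motif, 25.6% the Ikaros motif, 7.15% the Myc E-box, 16.3% the E-box CAGCTG and 20.2% the last of these motifs. Counted from the 5′ end, the Bcl6 window held CACGTG at bases 191 to 196 and TTCCGG, which is CCGGAA on the other strand, at bases 285 to 290. Both lay inside the Fli1 peak of that promoter. The Cdk6 window held CACGTG at bases 31 to 36, in accessible chromatin and outside any Fli1 or Ikzf1 peak. The Lpp window held TTCCCA, the other strand of TGGGAA, at bases 104 to 109, and it overlapped an Ebf1-bound region. The Krit1 window held CAGCTG at bases 120 to 125 and CCGGAA at bases 183 to 188 and 232 to 237, with a Fli1 peak over it. None of these 5 motifs was in the A230028O05Rik window, which also overlapped a Fli1 peak. These matches describe letters in the windows and are not evidence of binding.

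Myc had the most interactions of any gene, 73, Bcl6 had rank 4 with 49, and Cdk6 had rank 78 with 22. Over the 6129 genes the median was 6 and the 90th percentile was 14. The median span, between bin midpoints, was 805 kb for Myc, 635 kb for Bcl6 and 200 kb for Cdk6, beside 140 kb for all interactions with a promoter anchor. Among the 3619 genes with at least 5 interactions, 28 had a longer median span than Myc, 61 than Bcl6 and 937 than Cdk6. These numbers chose the genes and are given without a test. Cdk6 thus stood in the list as a promoter with many contacts of moderate reach, whereas Myc and Bcl6 were high in both number and reach.

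**Figure D1:**
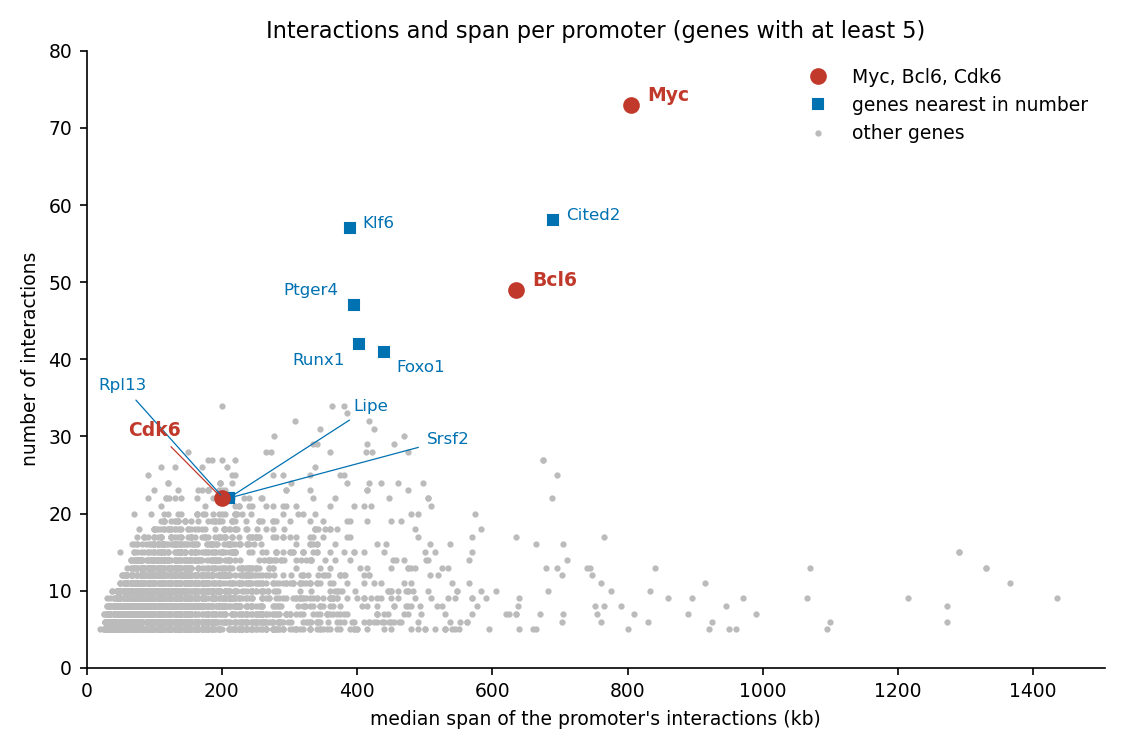
Number of interactions of each promoter (vertical axis) against their median span in kb (horizontal axis) for genes with at least 5 interactions in the Abelson line. Myc (73 interactions, 805 kb) and Bcl6 (49, 635 kb) lie apart from most grey points, and Cdk6 (22, 200 kb) lies above the median of 6 interactions, within the grey cloud.

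Apart from Bcl6 itself, the genes nearest to Myc in number were Cited2 with 58, Klf6 with 57 and Ptger4 with 47, whose median spans were 690, 390 and 395 kb. Cited2 encodes a partner of CBP and EP300, Klf6 a Krüppel-like factor and Ptger4 a prostaglandin E receptor. Bcl6 was nearest to Ptger4, to Runx1 with 42 interactions and a median span of 402.5 kb, and to Foxo1 with 41 and 440 kb. Runx1 and Foxo1 encode transcription factors needed in early B cell development. Cdk6 had the same number, 22, as 22 other genes. Those nearest in span were Rpl13, a ribosomal protein gene (202.5 kb), and Lipe, a lipase gene, and Srsf2, a splicing factor gene (210 kb each).

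The Myc promoter peaks lie at chr15:61984171-61984621 and chr15:61984701-61985856 (mm10), across 2 bins, and the bin starting at 61985001 carried 70 of the 73 interactions. That bin also held a Fli1 peak and an Ikzf1 peak, with authors' peak scores of 24.3 and 16.1. Downstream of the gene lay 70 partners, and 3 lay upstream, at 545 to 580 kb, with contact counts of 11 to 14. The contact count is the number of read pairs that join a pair of bins. Spans ran over 165 to 1795 kb, and 58 of the 73 partner bins touched no annotated gene, while 7 lay in the body of Pvt1.

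Contacts of Myc were strongest in 2 stretches far downstream. The partner bin with the highest count was chr15:62805001-62810000, 820 kb away, with 65 contacts (deposited q = 7.92e-69), and it held accessible regions and a Fli1 peak of score 26.2. That was also the highest count of all 5685 listed interactions of at least 500 kb, whose median was 9. The next counts were 52 at +1665 kb (q = 6.26e-56), 51 at +1615 kb (q = 2.55e-54), 49 at +1735 kb (q = 1.28e-51) and 40 at +1680 kb (q = 2.22e-38). All 4 of these bins held an accessible region, and the one at +1680 kb also held a Fli1 peak of score 21.4.

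The authors' merging of nearby contacts put these partners into blocks. The block chr15:63570001-63785000, 215 kb wide, took in 14 Myc interactions with 390 contacts listed. A second block, chr15:62775001-62835000, 60 kb wide, took in 4 with 157. Between them, the Myc contacts at 860 to 1570 kb counted 7 to 12 each. The longest Myc contact, +1795 kb with a count of 10, fell in the body of Gsdmc, a gasdermin gene. The other 4 longest contacts, at +1735, +1750, +1765 and +1780 kb, counted 49, 26, 12 and 25.

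At distances of at least 1500 kb, Myc accounted for 16 of 327 listed interactions and for 8 of the 10 highest counts. At 1000 kb or more it accounted for 30 of 1110 and for 6 of the top 10, and at 500 kb or more for 54 of 5685 and for 5 of the top 10. The 1 listed pair of at least 1500 kb with more contacts than any Myc pair of that span, 57 at a span of 2395 kb, had no accessible promoter at either end.

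Of the 73 Myc partners, 11 were also contacted from the Pvt1 promoter, which itself had 25 interactions with a median span of 695 kb and a longest span of 1700 kb. Myc had more contacts than Pvt1 at each of the 11 bins. At +1615 kb the counts were 51 for Myc and 13 for Pvt1, at +1665 kb they were 52 and 7, and at +835 kb they were 36 and 11. The closest pair of counts was at +165 kb, 23 for Myc and 22 for Pvt1. Pvt1 begins downstream of Myc, so that its own distance to these bins is shorter by about the distance between the promoters, 1565 kb in place of 1615 kb for example.

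The Bcl6 promoter peak, chr16:23988716-23989197, carried a Fli1 peak of score 31.4 and no Ikzf1 peak. All 49 partners lay upstream of the gene, towards and across Lpp, at 150 to 1175 kb. Of the 145 genes with at least 20 interactions, 36 (24.8%) had at least 90% of them on 1 side, and the median share of the larger side was 75%. Of the Bcl6 partners, 31 lay in the body of Lpp and 10 in no annotated gene, and 0 were contacted from another accessible promoter. The accessible region over the Lpp and Lppos starts was annotated as a non-coding exon and not as a promoter. Contacts from it were therefore not looked up, and the 0 says nothing about them.

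The highest Bcl6 count, 39 at 1070 kb (q = 2.97e-36), fell on the bin with the promoter of the non-coding gene A230028O05Rik, which had a Fli1 peak (score 15.2) and an Ikzf1 peak (score 4.70). This was the ninth highest count of all listed interactions of at least 500 kb. Next came 38 contacts at 355 kb (q = 2.91e-24), on a bin with Fli1 and Ikzf1 peaks of scores 32.4 and 12.5. The bin at 405 kb, where Lpp and the non-coding Lppos begin, had 36 contacts (q = 1.00e-22), an Ikzf1 peak of score 9.41 and an Ebf1-bound region, and no Fli1 peak. It was followed by 26 contacts at 885 kb, inside Lpp (q = 1.04e-18), and by 24 at 275 kb (q = 1.71e-07), on 2 Fli1 peaks with a top score of 41.0. The 3 Bcl6 bins with an Ikzf1 peak were thus the 3 with the highest counts. The other genes did not share this ranking, since the 1 such Myc bin counted 17 and the Cdk6 bins 8 to 65.

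The longest Bcl6 contacts were at 1175, 1155, 1070, 1055 and 1020 kb with counts of 11, 14, 39, 20 and 16. Of the 49, 31 spanned at least 500 kb, 6 at least 1000 kb and 0 at least 1500 kb. Part of them fell in 2 wide blocks, 6 interactions in chr16:24955001-25110000 and 8 in chr16:24800001-24940000, 155 and 140 kb wide.

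The Cdk6 promoter peak, chr5:3342481-3343498, held an Ikzf1 peak of score 6.66 and no Fli1 peak. Of its 22 partners, 17 lay downstream and 5 upstream, at 40 to 740 kb. The contacts were highest inside and just beyond the gene itself. The bin at +170 kb had 66 contacts (q = 1.65e-37) and that at +155 kb had 65 (q = 5.79e-39), both in the Cdk6 body, which held 6 of the 22 partners. The +155 kb bin held a Fli1 peak of score 25.3 and an Ikzf1 peak of score 9.41. At +120 kb the count was 56 (q = 7.59e-18) with a Fli1 peak of score 7.62, and at +135 kb it was 44 (q = 1.97e-15) with none of the peaks.

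Past the end of Cdk6, 42 contacts (q = 1.54e-22) joined the promoter to the bin at +255 kb, which overlaps Rbm48, an RNA-binding protein gene. That bin held Fli1 and Ikzf1 peaks of scores 29.5 and 6.27, and it was also contacted from the promoter of Mterf1a, a mitochondrial transcription factor gene, with 10 contacts. The promoter of Krit1, a gene of blood vessel integrity, was itself a partner at +460 kb with 13 contacts. It had 8 interactions of its own with a median span of 157.5 kb, and 3 of its partner bins were shared with Cdk6. At those shared bins Cdk6 and Krit1 counted 65 and 10 at +155 kb, 18 and 13 at +290 kb, and 13 and 52 at +435 kb, where Krit1 was 25 kb away. The longest Cdk6 contact, +740 kb, counted 8 and fell on Akap9 and the sterol enzyme gene Cyp51, with a Fli1 peak of score 27.2 and an Ikzf1 peak of score 6.27. The other longest, at +435, +460, +475 and +500 kb, counted 13, 13, 13 and 9.

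**Figure D2:**
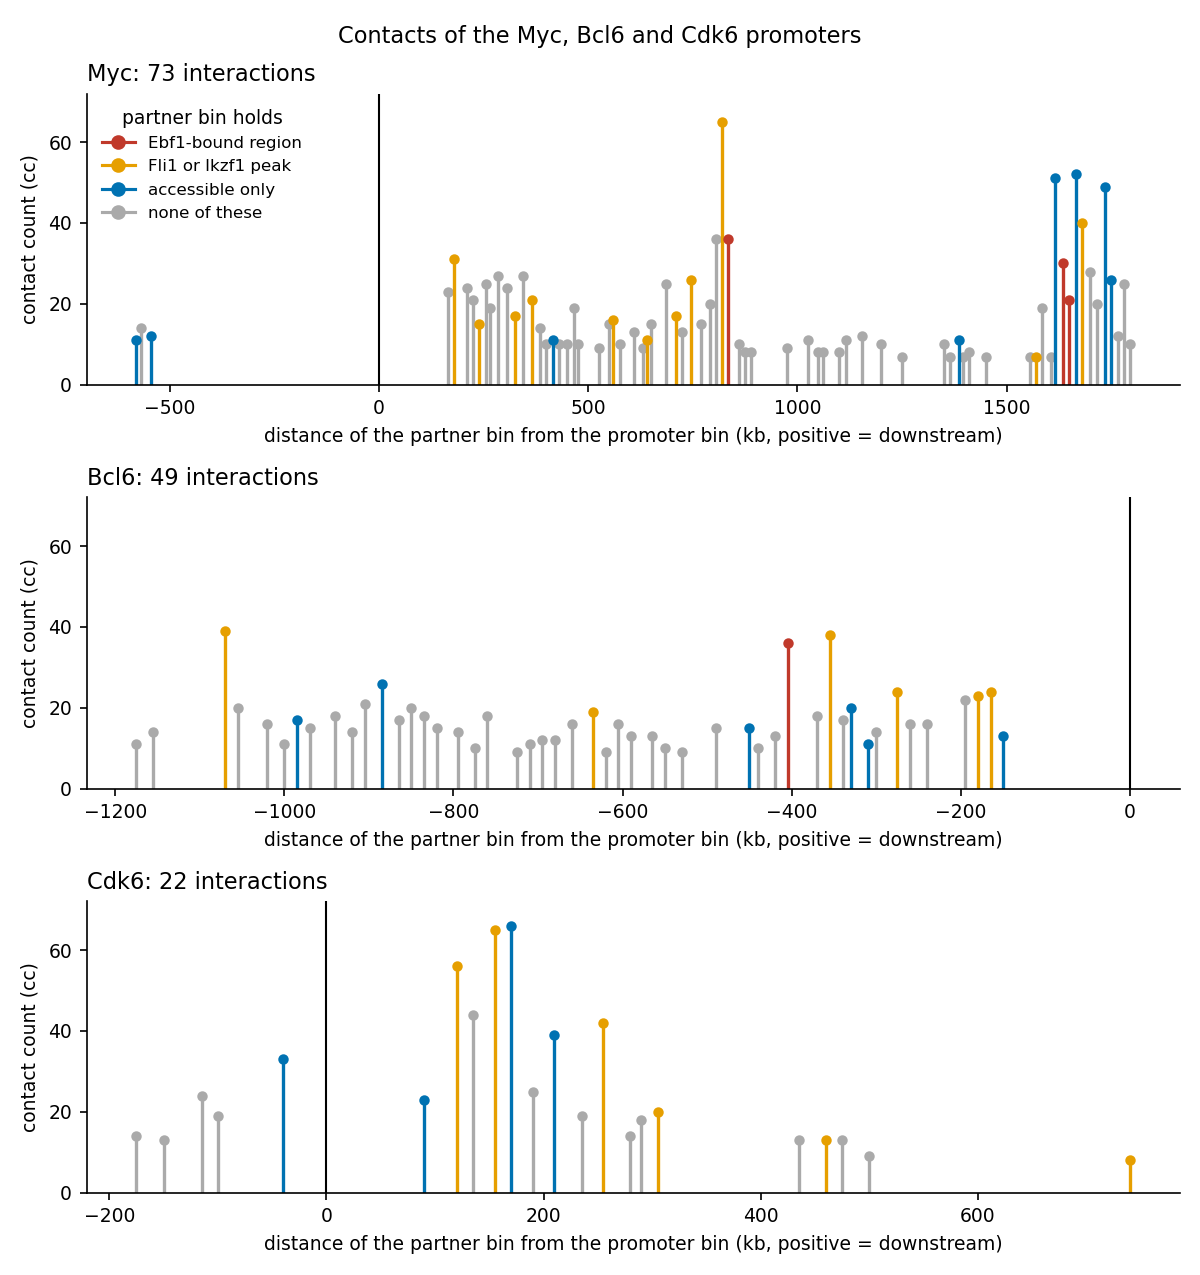
Contact count (vertical axes, read pairs) of each listed interaction against the signed distance of its partner bin from the promoter bin in kb (horizontal axes, positive is downstream of the gene) for Myc, Bcl6 and Cdk6. Colours give the peaks in the partner bin. Myc counts reach 65 at +820 kb and 52 at +1665 kb with a stretch of 7 to 12 between, all Bcl6 partners lie upstream, and Cdk6 counts are highest at +155 and +170 kb.

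Genes that work with the 3 are given here for their own contacts. In the list of Myc partners and antagonists (Max, Mxd, Mnt and Mga genes and the like), 9 of 11 had an accessible promoter, with a median of 7 interactions and a range of 2 to 15, the highest being Mlxip. For co-repressors and targets of Bcl6, 9 of 12 had such a promoter, with a median of 9 and a range of 1 to 25. The highest was Prdm1, the plasma cell regulator that Bcl6 represses, whose 25 interactions had a median span of 290 kb and a longest span of 645 kb. In the list of D-type cyclins, cyclin-dependent kinase inhibitors and E2F genes around Cdk6, 10 of 14 had such a promoter, with a median of 8 and a range of 4 to 19, E2f2 being the highest. Of 16 genes that neighbour the members, 6 had an accessible promoter by the annotation label and 5 had an interaction. The highest was Pvt1 with 25. The promoter windows of Lpp and Ankib1 overlapped accessible regions, but neither gene had one labelled as its promoter. The counts of accessible promoters in these lists may thus be too low. Over all 6129 genes the median was 6.

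Fewer than 1 in 3 partner bins of Myc, Bcl6 and Cdk6 together held an accessible region. An accessible region of the line lay in 44 of 144 member partner bins, 30.6% (95% Wilson interval 23.6% to 38.5%), and in 25693 of 41491 partner bins of all promoters, 61.9% (61.5% to 62.4%). By gene the share was 28.8% for Myc (21 of 73), 26.5% for Bcl6 (13 of 49) and 45.5% for Cdk6 (10 of 22). The intervals were 19.7% to 40.0%, 16.2% to 40.3% and 26.9% to 65.3%, so that the interval of Cdk6 overlapped those of Myc and Bcl6. Members make up part of the all-promoter set. Bins of 1 promoter are not independent of each other, so that the intervals understate the error. An interaction with accessible promoters at both ends was counted from each end, so that 36879 interactions gave 41491 partner bins. Such partners are accessible by definition, which raises the all-promoter share. Among the member partners only the bins of A230028O05Rik and Krit1 are of this kind. The all-promoter share without such partners was not computed.

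The shares also differed on both sides of a split at 500 kb, but spans were not matched within either class. In the longer class, 30 of 54 Myc interactions spanned at least 1000 kb, beside 1110 of 5685 in the list. Among interactions of at least 500 kb, accessible partners were 21 of 87 (24.1%, 16.4% to 34.1%) for the 3 genes and 2048 of 3694 (55.4%) for all promoters. Below 500 kb they were 23 of 57 (40.4%) for the 3 genes and 62.6% for all promoters. The gap depends on the bin. When every 5 kb partner bin was replaced by the authors' merged block, the accessible share was 59.0% for the 3 genes (50.9% to 66.7%) and 69.7% for all promoters, and the Fli1 share was 49.3% for the 3 genes and 50.9% for all promoters. A partner bin without a peak can thus lie in a block that holds one. A block counts once for each interaction in it, so that a few wide blocks weigh heavily.

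Fli1 and Ikzf1 peaks were those of Wt cultures. Fli1 peaks lay in 26 of 144 member partners, 18.1% (12.6% to 25.1%), and in 39.9% of all. The share was 19.2% for Myc, 12.2% for Bcl6 and 27.3% for Cdk6. Ikzf1 peaks lay in 8 of 144, 5.56% (2.84% to 10.6%), and in 12.2% of all, with 1 such bin for Myc, at +710 kb, 3 for Bcl6 and 4 for Cdk6. Ebf1-bound regions lay in 4 of 144, 2.78% (1.09% to 6.92%), and in 2.93% of all. Of these 4, 3 were partners of Myc and 1 of Bcl6. Cdk6 had 0 of 22, which by the same interval allows a share of up to 14.9%. The Ebf1-bound list is short, 1172 regions near genes that the authors selected as enriched in Wt, so that an Ebf1 site near another gene is not in it. With merged blocks the order turned round for both factors, with Ikzf1 at 30.6% for the 3 genes and 18.2% for all promoters, and Ebf1-bound regions at 20.8% for the 3 genes and 4.21% for all promoters.

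**Figure D3:**
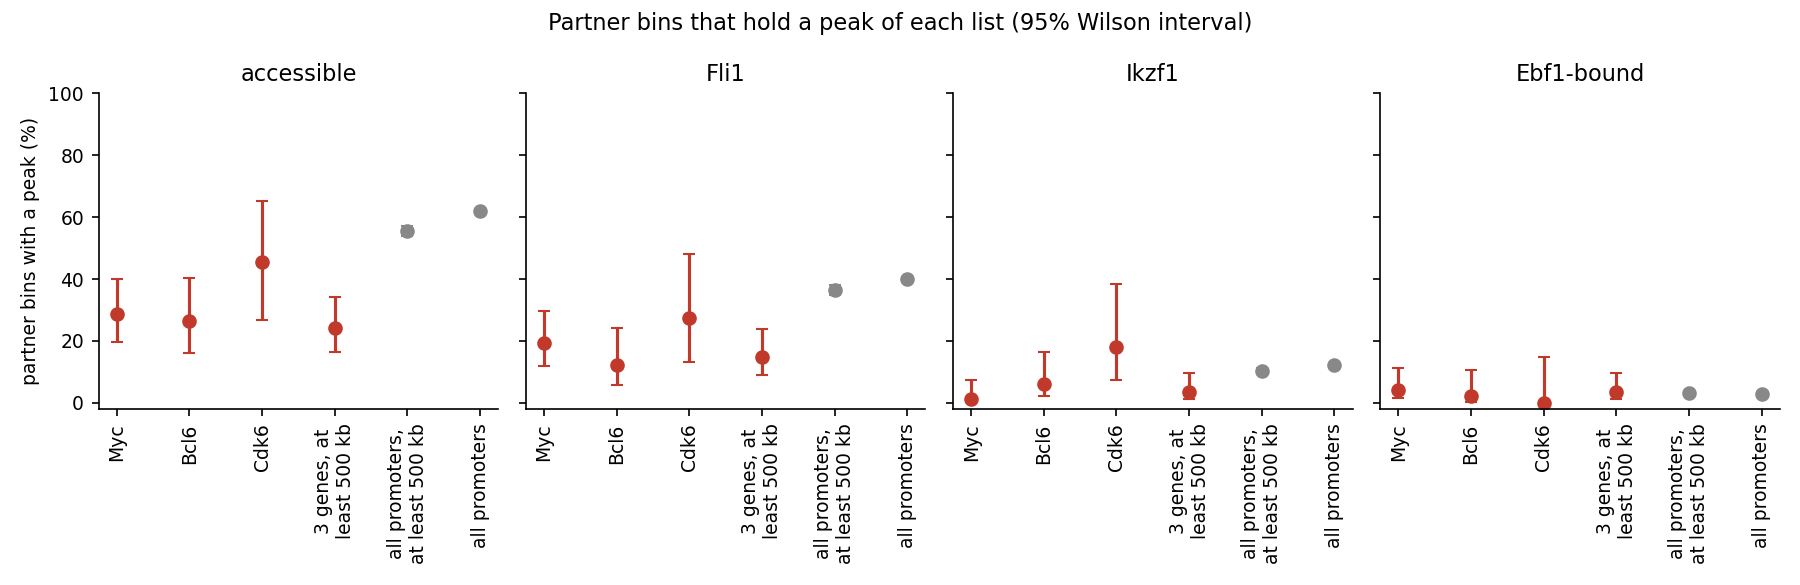
Share of partner bins (%, vertical axis) that overlap an accessible region, a Fli1 peak, an Ikzf1 peak or an Ebf1-bound region, for Myc, Bcl6, Cdk6, the 3 genes at spans of at least 500 kb, and all promoters at those spans and at any span. Bars are 95% Wilson intervals. For accessible and Fli1 partners, Myc and Bcl6 lie below all promoters, and for Ebf1-bound partners every interval takes in the all-promoter share.

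For each gene the median contact count was higher over bins with an accessible region. The median count was 21 with and 11 without an accessible region for Myc, 23 and 14.5 for Bcl6, and 36 and 16 for Cdk6. For Fli1 the medians were 21 and 12, 24 and 15, and 31 and 19. For Ikzf1, with 1, 3 and 4 bins, they were 17 and 13.5, 38 and 15, and 27.5 and 19.5. Distance differed as well for Bcl6, whose accessible partners had a median span of 355 kb and the others 702.5 kb. For Myc those spans were 820 and 797.5 kb, and for Cdk6 190 and 212.5 kb. The part of distance in these counts was not tested.

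To see how the contacted regions behaved without E2A or Ebf1, rows of the deposited region tables inside partner bins were read. There were 17 such regions, 14 for Myc, 3 for Bcl6 and 0 for Cdk6, so that the Cdk6 contacts have no values here. The tables list only accessible regions of genes that the authors selected as enriched in Wt cells. Shares, medians and scaling factors taken over them are thus not those of all accessible regions. The tables named other genes as nearest for all 17, H2afy3, Gm20740 and Gsdmc on the Myc side and Lppos, Morf4l1-ps1 and A230028O05Rik on the Bcl6 side. A region is called by the member and its distance, so that Myc +1635 kb is 1635 kb downstream of the Myc start. Values are normalised tags, the tags in a region per 10000000 tags of the library, and a call is a change of at least 2-fold in value plus 1. Fold changes are log2 of value plus 1, which understates the change of low values, and the interval of a ratio is that of the ratio of the values themselves. The contact map is of the Abelson line and the values are of primary cultures, and whether the same contacts exist in those cultures was not measured.

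Accessibility in E2A-KO cells was lower than in Wt cells at the most distal Ebf1-bound Myc partners. The region Myc +1635 kb, chr15:63619865-63620839, had 4.66 normalised tags in E2A-KO cells and 36.68 in Wt cells, a log2 change of -2.73 (ratio 0.0899 to 0.175). Myc +1652 kb, chr15:63636304-63637505, had 4.90 in E2A-KO cells and 27.38 in Wt cells (log2 change -2.27). Myc +839 kb, chr15:62823735-62825317, in the +835 kb bin with 36 contacts, had 16.21 in E2A-KO cells and 48.77 in Wt cells (log2 change -1.53). These 3 are all the Ebf1-bound regions in Myc partner bins, and all 3 are intergenic.

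Closer to Myc, both small regions at +366 kb were also low, with 1.75 and 0.47 in E2A-KO cells, against 8.52 and 4.75 in Wt cells. Myc +1682 kb had 4.31 in E2A-KO cells and 9.69 in Wt cells (log2 change -1.01). Of the 17 regions only Myc +180 kb, in an intron of Pvt1, was higher by the 2-fold rule, with 10.96 in E2A-KO cells and 3.25 in Wt cells (log2 change 1.49, ratio 2.37 to 4.85). In all, 6 of 17 regions were lower and 1 was higher, where 37.9% of the 4983 regions of the table were lower and 0.983% higher, so that the share of lower regions was near that of the table. The table's median log2 change was -0.76. With TMM scaling, whose factors shift the log2 ratio by 0.90 before 1 is added, 4 were lower and 3 higher, and 15.1% of the table was lower and 5.90% higher. The log2 change then stood at -1.91 for Myc +1635 kb, at -1.45 for Myc +1652 kb and at -0.66 for Myc +839 kb.

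At Bcl6, the Ebf1-bound region -405 kb, chr16:24392612-24394441, covers exon 1 of Lppos and the start of Lpp. It had 39.87 normalised tags in E2A-KO cells and 69.84 in Wt cells, a log2 change of -0.79 that TMM scaling brings to 0.09. The A230028O05Rik promoter, chr16:25058711-25059697, had 10.84 in E2A-KO cells and 22.56 in Wt cells (log2 change -0.99, and -0.14 with TMM scaling). Neither met the 2-fold rule.

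**Figure D4:**
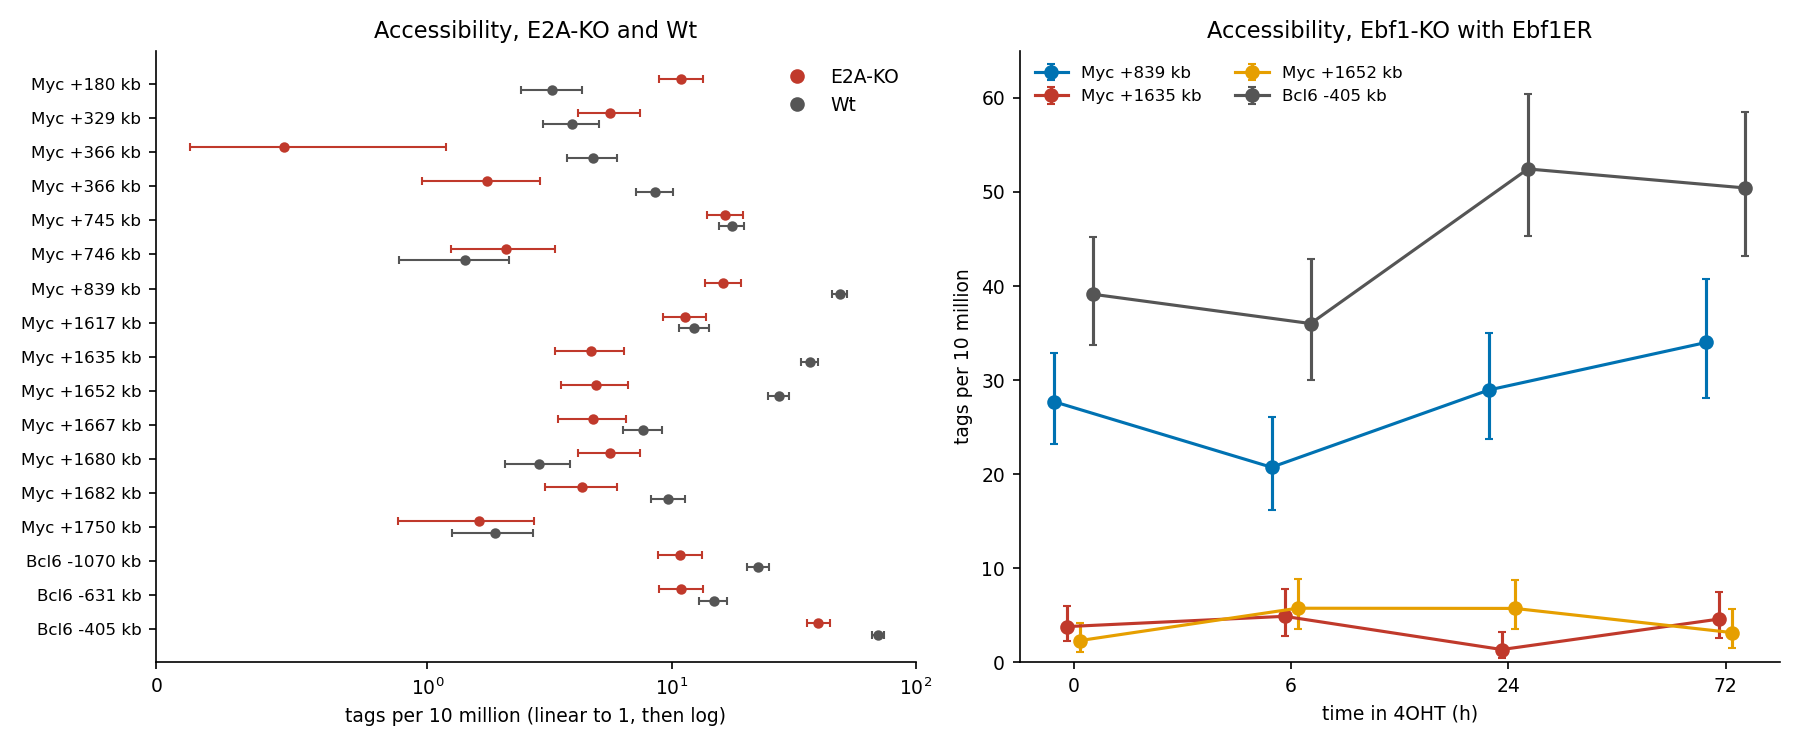
Left, accessibility (tags per 10000000, linear to 1 and then logarithmic) of the 17 regions in partner bins in E2A-KO and Wt cells. Right, accessibility of the 4 Ebf1-bound regions against time in 4OHT (0, 6, 24 and 72 h) in Ebf1-KO cells with Ebf1ER. Bars are exact 95% Poisson intervals. Myc +1635 and +1652 kb are far apart between genotypes on the left (4.66 and 4.90 in E2A-KO cells, 36.68 and 27.38 in Wt cells) and stay under 6 at all 4 times on the right.

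Before TMM scaling, active marks were lower in Ebf1-KO cells than in Wt cells at Myc +1635 and +1652 kb. They changed less than 2-fold at Myc +839 kb and Bcl6 -405 kb. The authors had placed the first pair among Ebf1-bound regions closed in Ebf1-KO cells and the second among those open there, so that this split follows their classes and is not independent of accessibility. At Myc +1635 kb, H3K4me2, a mark of enhancers and promoters, was 5.28 in Ebf1-KO cells and 27.94 in Wt cells (log2 change -2.20), and at Myc +1652 kb it was 2.88 in Ebf1-KO cells and 39.11 in Wt cells (-3.37). H3K27ac, a mark of active enhancers measured by CUT&RUN, was 17.4 and 8.51 in Ebf1-KO cells, against 36.45 and 41.74 in Wt cells. Its log2 changes were -1.03 and -2.17, and -0.30 and -1.46 with TMM scaling. At Myc +839 kb, H3K4me2 was 51.79 in Ebf1-KO cells and 67.29 in Wt cells, and H3K27ac was 81.43 and 82.46. At Bcl6 -405 kb, H3K4me2 was 121.33 in Ebf1-KO cells and 95.96 in Wt cells, and H3K27ac was 38.5 in Ebf1-KO cells and 57.62 in Wt cells (log2 change -0.57, and 0.17 with TMM scaling).

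H3K4me3 was also lower at the far Myc pair. It was 5.00 in Ebf1-KO cells and 15.92 in Wt cells at Myc +1635 kb (log2 change -1.50), and 6.38 and 11.87 at Myc +1652 kb (-0.80). At Bcl6 -405 kb, which is a promoter, it was the highest of all, 352.53 in Ebf1-KO cells and 280.43 in Wt cells (0.33). H3K27me3, the Polycomb mark, was under 4 normalised tags in each genotype at all 4 regions. At Myc +839 kb it was 0.52 in Ebf1-KO cells and 3.15 in Wt cells (log2 change -1.45).

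RNA polymerase II (PolII) was 5.13 in Ebf1-KO cells and 18.34 in Wt cells at Myc +1635 kb (log2 change -1.66), and 7.87 and 23.02 at Myc +1652 kb (-1.44). BRG1, the ATPase of the SWI/SNF remodelling complex, was 7.97 in Ebf1-KO cells and 17.03 in Wt cells at Myc +1635 kb, and 6.92 and 17.22 at Myc +1652 kb. The BRG1 log2 changes were -1.01 and -1.20, and -0.73 and -0.92 with TMM scaling. The acetyltransferase EP300 was 2.19 in Ebf1-KO cells and 19.23 in Wt cells at Myc +1635 kb (log2 change -2.66), and 6.74 and 22.39 at Myc +1652 kb (-1.60). At Myc +839 kb the order was the other way, with BRG1 at 34.39 in Ebf1-KO cells and 20.81 in Wt cells (ratio 1.29 to 2.12) and EP300 at 39.8 and 22.15 (ratio 1.41 to 2.31), both under the 2-fold rule. At Bcl6 -405 kb, BRG1 was 21.6 in Ebf1-KO cells and 18.16 in Wt cells, and EP300 was 28.67 and 18.5, also under the rule. With TMM scaling EP300 met the rule at Myc +839 kb (log2 change 1.39) and at Bcl6 -405 kb (1.17). The antibody label of the Wt EP300 sample names PolII with a question mark whereas that of the Ebf1-KO sample names EP300, so that the EP300 values may compare different targets.

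**Figure D5:**
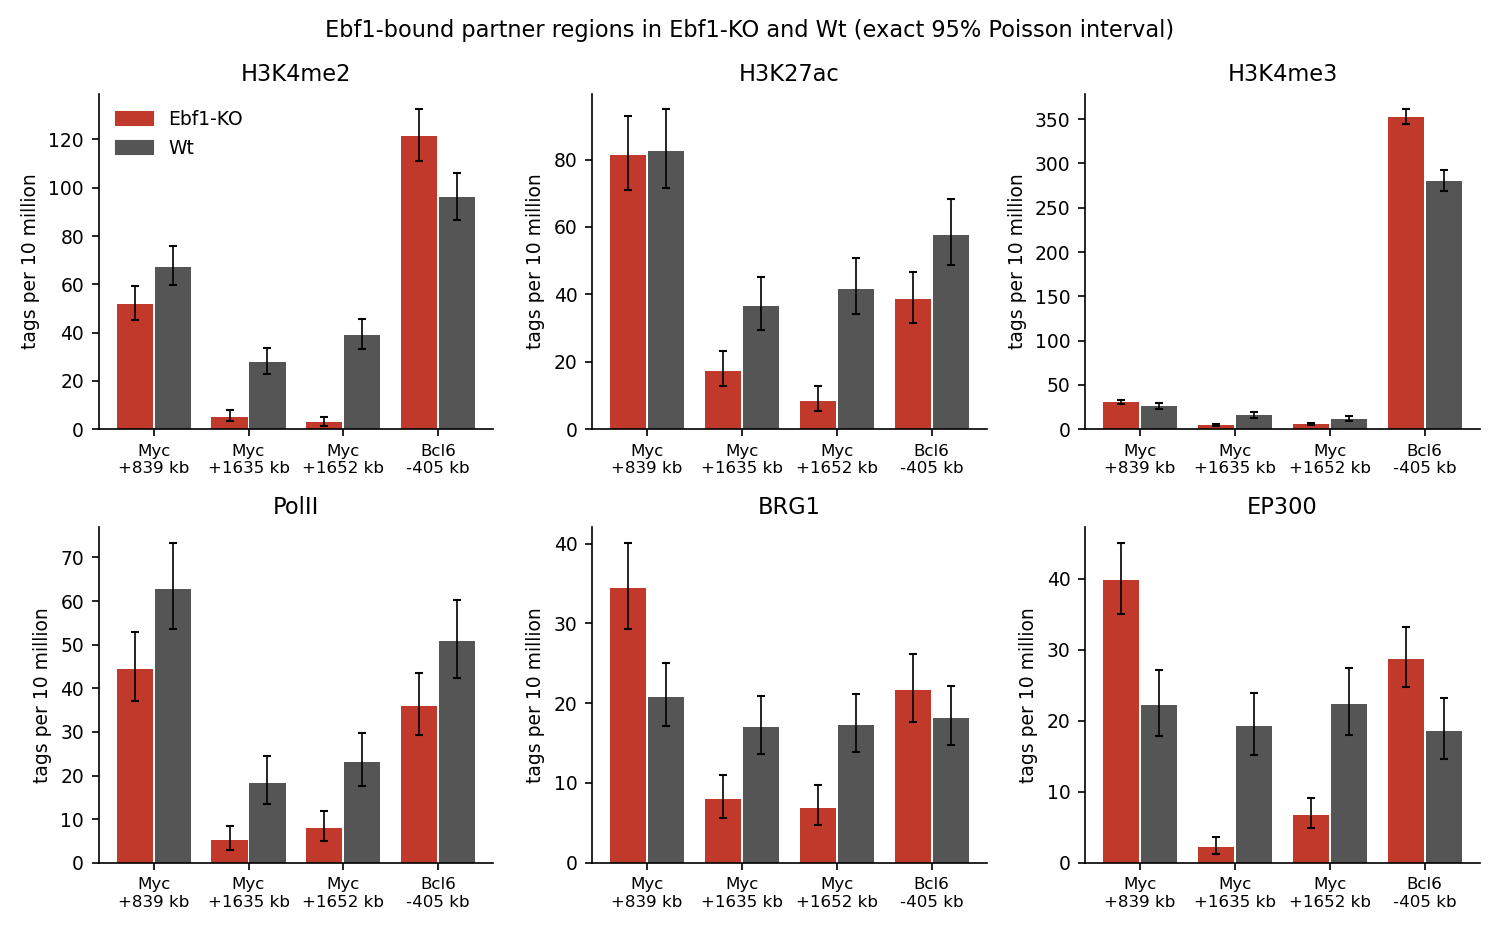
Tags per 10000000 (vertical axes, starting at 0, a scale for each panel) of 3 histone marks, PolII, BRG1 and EP300 in Ebf1-KO and Wt cells at the 4 Ebf1-bound regions in partner bins of Myc and Bcl6. Bars are single columns of the deposited tables and lines are exact 95% Poisson intervals. At Myc +1635 and +1652 kb the Ebf1-KO bar is the lower in all 6 panels (EP300 2.19 and 6.74 in Ebf1-KO cells, 19.23 and 22.39 in Wt cells).

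Counting all regions in partner bins, H3K4me2 was lower in 3 of 11 and higher in 0, where 30.5% and 7.44% of the 3764 regions of the tables were lower and higher. H3K27ac was lower in 3 of 11 and higher in 0, beside 37.3% and 1.14%. H3K4me3 was lower in 2 of 11 and higher in 1, beside 25.3% and 15.5%. H3K27me3 was lower in 2 of 11 and higher in 0, beside 4.70% and 16.6%. PolII was lower in 4 of 11 and higher in 1, beside 40.0% and 7.04%. Among the 1172 Ebf1-bound regions, BRG1 was lower in 2 of the 4 partner regions and higher in 0, beside 32.4% and 9.98%, and EP300 was lower in 2 of 4 and higher in 0, beside 36.9% and 11.0%. With so few regions the member counts cannot be told from these shares. The counts also follow in part the authors' classes, which place Myc +366, +1635, +1652 and +1667 kb among regions closed in Ebf1-KO cells.

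The shift that TMM factors give was 0.76 for H3K27ac, 0.74 for PolII, 0.59 for EP300, 0.30 for BRG1 and 0.16 for H3K4me2, and low values move less because 1 is added to them. With it, H3K27ac was lower in 1 region, Myc +1652 kb (log2 change -1.46), and higher in 3. Those 3 were Myc +745 kb (1.72), Myc +1617 kb (1.04) and Myc +1667 kb (1.47). PolII was lower in 1, at Myc +366 kb (-1.63), and higher in 3. BRG1 was lower in 0, and EP300 was lower in 2 and higher in 2, Myc +839 kb and Bcl6 -405 kb. With the same scaling 20.0% of the H3K27ac table was lower and 7.92% higher, 25.5% and 18.4% of the PolII table, 27.1% and 16.0% of the BRG1 table, and 26.5% and 21.7% of the EP300 table. H3K4me2 at Myc +1635 and +1652 kb kept log2 changes of -2.06 and -3.23.

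The other Myc partners differed among themselves. Myc +745 kb was the 1 region with more PolII by the 2-fold rule, with 74.22 in Ebf1-KO cells and 18.73 in Wt cells (log2 change 1.93, ratio 2.89 to 5.54), and its H3K27ac was 45.71 in Ebf1-KO cells and 22.6 in Wt cells (0.98). Myc +1682 kb, in a bin with 40 contacts, had H3K27ac of 20.73 in Ebf1-KO cells and 49.07 in Wt cells (-1.20) and PolII of 7.18 and 19.12 (-1.30). At Myc +366 kb, 1 of the 2 regions had values for these marks, and PolII was 1.37 in Ebf1-KO cells and 9.75 in Wt cells, H3K4me2 2.16 and 7.77, and H3K4me3 0.10 and 2.61. Myc +1667 kb, in the bin with 52 contacts, had more H3K4me3, 2.3 in Ebf1-KO cells and 0.39 in Wt cells (1.25), at low levels in both. At Myc +1617 kb, in the bin with 51 contacts, H3K27me3 was 0.39 in Ebf1-KO cells and 1.93 in Wt cells (-1.08). H3K27ac was 20.17 in Ebf1-KO cells and 15.88 in Wt cells at Myc +1617 kb (0.33), and 19.43 and 10.99 at Myc +1667 kb (0.77). H3K4me2 was 18.22 and 11.42 at Myc +1617 kb (0.63), and 3.36 and 5.34 at Myc +1667 kb (-0.54). None of these H3K27ac and H3K4me2 changes met the rule, but with TMM scaling both H3K27ac changes did (1.04 and 1.47). Of the Bcl6 partners, the region -631 kb in an Lpp intron had H3K4me3 of 15.05 in Ebf1-KO cells and 7.57 in Wt cells (0.91), which did not meet the rule.

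The Ebf1-bound Myc partners that were closed in Ebf1-KO cells had few tags at every time in 4OHT, the drug that activates Ebf1ER. At 0, 6, 24 and 72 h, Myc +1635 kb had 3.81, 4.90, 1.37 and 4.61 normalised tags (18, 17, 5 and 16 tags), with a log2 change of -1.02 at 24 h (ratio 0.104 to 1.00). Myc +1652 kb had 2.33, 5.76, 5.74 and 3.17 (11, 20, 21 and 11 tags), with log2 changes of 1.02 at 6 h and at 24 h and 0.33 at 72 h. These changes rest on 5 to 21 tags in each pool of 2 samples. The interval at Myc +1635 kb takes in no change, and those at Myc +1652 kb were 1.13 to 5.72 at 6 h and 1.14 to 5.66 at 24 h.

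The 2 regions that were open in Ebf1-KO cells had more tags at every time. Myc +839 kb had 27.70, 20.74, 28.95 and 34.00 normalised tags at 0, 6, 24 and 72 h. Bcl6 -405 kb had 39.12, 36.01, 52.44 and 50.42. None of these met the 2-fold rule at any time, and TMM scaling turned the 24 h log2 change of Bcl6 -405 kb from 0.41 into -0.14 and that of Myc +839 kb from 0.06 into -0.48.

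Of the 4 regions, 0 were lower and 1 higher at 6 h, 1 lower and 1 higher at 24 h, and 0 lower and 0 higher at 72 h. In the table of 1172 regions, 0.597% were lower and 5.97% higher at 6 h, 0.853% and 16.1% at 24 h, and 0.597% and 18.2% at 72 h. The median log2 changes in the table were 0.26, 0.47 and 0.50 at 6, 24 and 72 h, and the TMM shifts were -0.29, -0.56 and -0.59. With it, Myc +1652 kb stood at 0.82 at 6 h and 0.59 at 24 h, under the 2-fold rule.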

How the data were processed

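The PLAC-seq list holds contact counts of 5 kb bin pairs and bias-corrected q-values as the authors deposited them, at q of at most 0.05 with nearby contacts merged. Each region table holds signal values, which the authors made with HOMER by scaling the tags in a region to a library of 10000000, per the file headers, without dividing by length. Fli1 and Ikzf1 peaks of Wt cells carry the authors' peak score, per the file headers. HiC-Pro 2.11.1, HOMER 4.10, MACS2 and Bowtie2 2.3.5 appear in the submitters' processing notes, with the build mm10 (GRCm38.p5). Of the deposited value columns, 2 (Ebf1-KO and Pax5-KO accessibility) were not used, since no labelled sample matched them. The Wt accessibility column is named as a pool of 6, whereas 3 Wt samples are labelled. Its name also gives a size set to 180, whereas the name of the E2A-KO column gives the removal of chrM. The 2 columns may thus differ in processing, and the part of this in the E2A-KO changes was not tested.

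From these files, bins and peaks were joined by an overlap of at least 1 base, values became log2 of value plus 1, and scaled values times the header total gave tags for exact Poisson intervals. Shares have Wilson intervals. Tests across samples that were planned could not be run with 1 column per group. TMM factors came from edgeR 4.0.16, and Python 3.11.15, pandas 2.3.3 and SciPy 1.17.1 did the rest, tested on simulated data. Named per gene were the 5 partners with the highest count, the 5 longest, every Ebf1-bound partner, and every table region in a partner bin. The members and lists were chosen with earlier results of these data known. Some items are not reported here.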

Additional observations from a re-analysis of the deposited data

How the results depend on the processing

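No paired analysis was possible because each group is 1 column of the deposited tables, and for the same reason no replicate could be left out. Of 166 recomputed shares and counts, 131 stayed within their limits. Over other anchors and thresholds Myc kept 54 to 74 interactions, Bcl6 44 to 70 and Cdk6 18 to 25. With partner bins extended by 2500 bases, accessible partners were 42.5% for Myc and 44.9% for Bcl6. With merged blocks, an alternative chosen after seeing the data that counts a block once per interaction in it, accessible partners were 50.7% for Myc and 69.4% for Bcl6, Fli1 partners 43.8% for Myc, 55.1% for Bcl6 and 54.5% for Cdk6, Ikzf1 partners 23.3% for Myc and 38.8% for Bcl6, and Ebf1-bound partners 26.03% for Myc and 22.4% for Bcl6, beside 18.2% and 4.21% of all promoters for those factors.

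With a pseudocount of 5, the E2A-KO comparison had 0 higher, 6 h of 4OHT 0 higher, 24 h 0 lower and 0 higher, H3K4me3 1 lower and 0 higher, H3K27me3 0 lower and BRG1 0 lower. With TMM factors there were 3 higher for E2A-KO, 0 higher at 6 h and at 24 h, 1 lower and 3 higher for H3K27ac and for PolII, 0 lower for BRG1 and 2 higher for EP300. Adding the 7 regions of merged blocks gave 1 lower at 6 h, 2 higher for H3K4me3, 5 lower for H3K4me2, 6 lower for H3K27ac, 2 higher for PolII, and 1 higher for BRG1 and for EP300. The cause of these moves was not tested. Of 184 values of single regions, 52 moved, and no called one changed sign. Low tag counts limit the 4OHT values at Myc +1635 and +1652 kb and the H3K27me3 values.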

Other observations

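Beyond the partner bins themselves, 7 regions of the tables lay inside the merged blocks of Myc or Bcl6 contacts. The intergenic region Bcl6 -1064 kb, chr16:25052679-25053432, lies beside the A230028O05Rik bin with the highest Bcl6 count. Its BRG1 value was 41.94 normalised tags in Ebf1-KO cells and 4.16 in Wt cells (log2 change of value plus 1 of 3.06, ratio 6.47 to 16.4), and its EP300 value was 13.63 in Ebf1-KO cells and 5.60 in Wt cells (1.15). In the same region H3K27ac was 46.45 in Ebf1-KO cells and 47.64 in Wt cells, and accessibility was 14.92 in E2A-KO cells and 32.77 in Wt cells (-1.08, and -0.22 with TMM scaling). At 0, 6, 24 and 72 h in 4OHT it was 12.9, 17.57, 11.74 and 23.34. BRG1 and EP300 are each a single library here, and the antibody label of the Wt EP300 sample names PolII with a question mark.

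At 359 kb upstream of Bcl6, chr16:24347427-24348536, beside the bin with 38 contacts, accessibility was 16.79 in E2A-KO cells and 50.85 in Wt cells (-1.54, and -0.67 with TMM scaling), and H3K27ac was 38.5 in Ebf1-KO cells and 83.68 in Wt cells (-1.10, and -0.36 with TMM scaling). Within the far Myc block, Myc +1632 kb had H3K4me3 of 30.86 in Ebf1-KO cells and 11.22 in Wt cells (1.38) and PolII of 27.02 in Ebf1-KO cells and 11.32 in Wt cells (1.19), whereas both were lower in Ebf1-KO cells at Myc +1635 kb. These regions lie outside the 5 kb bins that the list gives, and were read after the bins had been seen.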
